A study of Rattus norvegicus with 21 samples.

Results

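The Hedgehog genes Shh, Ptch1, Smo, Hhip, Gli1, Gli2 and Gli3 were followed in rat retina after long light exposure. They were selected by gene symbol, and all 7 were found among the 19099 genes of the count table and were among the 16006 genes tested. Gli1 entered the selection because it was among the largest rises in one halogen light group, Hal200, so every value of these genes in Hal200 is given as a description without a test.

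Retinas of Sprague Dawley rats were sequenced in 21 libraries, 3 for each of 7 groups, after 6 months of exposure; an age of 8 months is filed in the labels. The title of the series names dental lighting and disruption of the barrier between blood and retina. The groups were a control group, blue light at level 200 or 1000 (Blue200, Blue1000), halogen light at level 200 or 1000 (Hal200, Hal1000) and LED light at level 200 or 1000 (LED200, LED1000). No genetic change is named for any group, the labels give neither the unit of the levels nor the light of the controls, and LED was matched to the white light of the design text by elimination. Separate animals are not stated for the 3 samples of a group, and p-values therefore rest on a spread between samples that may be technical.

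In the Hedgehog pathway a secreted ligand (Sonic, Desert or Indian hedgehog) binds Patched and relieves its block on Smoothened, which signals through the primary cilium to the Gli transcription factors. Gli2 and Gli3 are processed into activator or repressor forms, whereas Gli1 is an activator and, with Ptch1 and Hhip, a textbook transcriptional target of the pathway. In the retina, ganglion cells make Sonic hedgehog, and Müller glia and retinal progenitors are known to respond to it.

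Because Ptch1 is a textbook Gli target, its promoter is shown with the Gli-binding consensus. The motif GACCACCCA, read on the other strand as TGGGTGGTC, was searched on both strands in windows from 250 bases before to 50 bases after the gene starts of RefSeq (build GRCr8). These letters were present in 129 of 33469 promoters (0.385%). Of the members, 5 of 7 had a promoter entry, and 1 of these 5, Ptch1, held the motif, from 172 to 164 bases before its start. Among other pathway genes 1 of 49 promoters held it, that of Ulk3, a kinase acting on Gli proteins, from 247 to 239 bases before the start. The 250 bases upstream of both genes read as follows on the plus strand, with the motif in capitals, at chr17:1555321-1555570 for Ptch1 and chr8:66888684-66888933 for Ulk3.
Ptch1: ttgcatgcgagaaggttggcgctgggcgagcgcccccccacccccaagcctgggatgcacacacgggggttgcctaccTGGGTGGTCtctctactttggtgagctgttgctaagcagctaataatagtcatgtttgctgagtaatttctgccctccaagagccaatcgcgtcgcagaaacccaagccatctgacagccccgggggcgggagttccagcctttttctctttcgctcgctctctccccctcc
Ulk3: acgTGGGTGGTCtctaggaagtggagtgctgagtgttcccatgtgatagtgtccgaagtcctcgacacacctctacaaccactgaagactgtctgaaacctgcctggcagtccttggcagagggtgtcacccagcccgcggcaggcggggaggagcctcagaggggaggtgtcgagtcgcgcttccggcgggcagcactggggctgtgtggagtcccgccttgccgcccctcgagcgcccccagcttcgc
A match describes these letters only, not binding.

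Libraries held 30404774 to 35437448 counts, and 3 counts corresponded to 0.0853 to 0.112 CPM (counts scaled by library size and by TMM, which sets most genes level between libraries). The labelled tissue was checked by rod, ganglion cell and Müller glia markers, and all 15 rod markers were present in every group. The summed rod markers, genes of the cells of dim-light vision, lay at 41575 to 47615 CPM in control, 19372 to 34211 CPM in Hal200 and 314 to 1630 CPM in the other 15 light libraries. Some libraries stood apart: Blue200 replicate 1, control replicate 3 and LED200 replicate 1 held the most lens RNA (3678 to 8880 CPM over 14 markers), Blue1000 replicates 1 and 3 held 2103 and 1099 CPM against at most 177 CPM elsewhere, and 3 libraries were intermediate between their mates. On genes where the mates differed, LED1000 replicate 2 was intermediate for 91.9%, Hal1000 replicate 3 for 88.7% and Blue1000 replicate 3 for 87.5%, against 34.3% to 80.3% in the remaining libraries. In Blue1000 replicate 3 the lens sum of 1099 CPM lay between 2103 and 10.7 CPM in its mates. In Hal1000 replicate 3 the pigment epithelium sum of 945 CPM lay between 466 and 1454 CPM. Whether these 3 libraries are independent samples is not stated. If they are not, n = 3 and the SEs are too favourable for Blue1000, Hal1000 and LED1000. In bulk tissue, fewer cells of a type and less RNA per cell cannot be told apart.

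Measured per gene length, Ptch1 was the most abundant member, with a mean of 20.6 FPKM over the 21 libraries. Smo followed at 16.2 FPKM and Shh at 7.12 FPKM. Gli2 had a mean of 2.74 FPKM, Gli3 of 2.10 FPKM, Gli1 of 0.305 FPKM and Hhip of 0.0832 FPKM. Ptch1 was measured with 4362 to 7932 reads per library and Smo with 586 to 1653, whereas Gli1 rested on 0 to 208 reads and Hhip on 0 to 31.

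**Figure D1:**
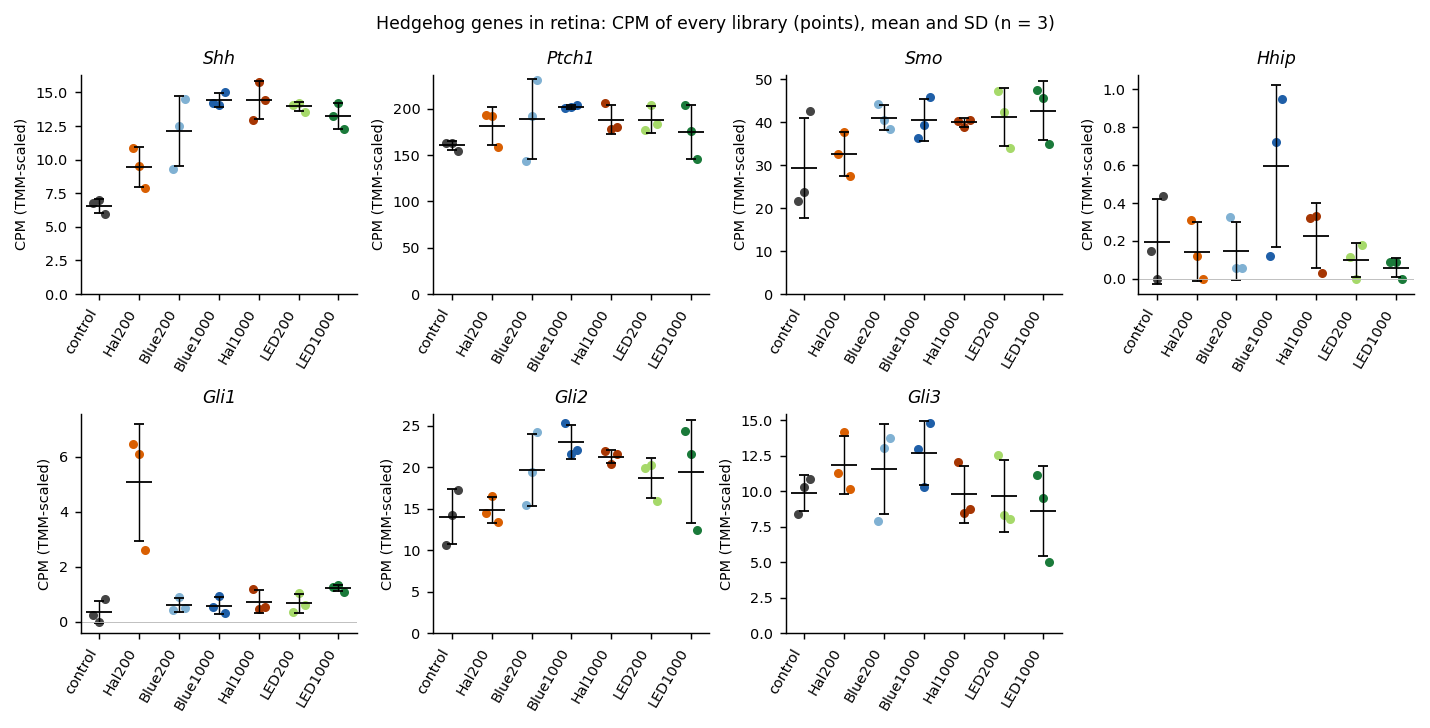
Level of the 7 Hedgehog genes in TMM-scaled CPM, with 1 panel per gene, 1 point per library, and the mean and SD of each group (n = 3). Shh lay higher in all 15 libraries of the 5 light groups other than Hal200 than in any control library. Gli1, which entered the selection for its rise in Hal200, lay highest in the 3 Hal200 libraries.

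Shh, the ligand, was the member with the clearest difference. It stood at 6.76, 6.97 and 5.98 CPM in the 3 control libraries. It stood at 9.33, 12.5 and 14.5 CPM in Blue200, at 14.2, 14.1 and 15.01 CPM in Blue1000 and at 13.0, 15.8 and 14.5 CPM in Hal1000. In LED200 it stood at 14.1, 14.2 and 13.6 CPM, and in LED1000 at 13.2, 14.2 and 12.3 CPM. All 15 libraries lay above all 3 controls, an ordering that 18.9% of all genes tested also showed.

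Shh was 2.07-fold higher in the mean of these 5 groups than in control (log2 1.05 ± 0.12 SE, edgeR adjusted p 4.5e-07). It rose in each of them by 0.88 to 1.14 on the log2 scale, with edgeR adjusted p from 3.0e-06 in Hal1000 to 5.7e-05 in Blue200. In Hal200 it stood at 10.8, 9.52 and 7.87 CPM, above all controls and, apart from Blue200 replicate 1, below all other light libraries, and it differed from control by 0.52 ± 0.15 (log2, SE). Ordered by mean, the groups ran control, Hal200, Blue200, LED1000, LED200, Hal1000 and Blue1000, with Hal200 above control and each later group overlapping the one before it. Under every alternative processing, Shh remained higher and past the threshold in each of the 5 groups.

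Markers of ganglion cells, the cells known to make Sonic hedgehog, were higher in the same libraries. Their sum over 15 genes, none of them at 0, lay at 1314 to 1454 CPM in control, 1762 to 2163 CPM in Hal200 and 2299 to 2669 CPM in the other light libraries. Of their defining genes, Rbpms had a mean of 17.1 CPM in control and 33.9 to 41.4 CPM in the 5 groups, and Pou4f2, a ganglion cell transcription factor, of 9.08 CPM and 14.98 to 18.4 CPM. Per 1000 CPM of the marker sum, Shh stood at 4.78 ± 0.47 in control (SD, n = 3), 4.81 ± 0.29 in Hal200 (SD, n = 3) and 5.43 ± 0.57 in the other light libraries (SD, n = 15). Relative to the markers, the ranges overlapped, with 4.38 to 5.30 in control and 4.06 to 6.16 in the 15 libraries. The part of the markers in the rise of Shh was not tested.

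**Figure D2:**
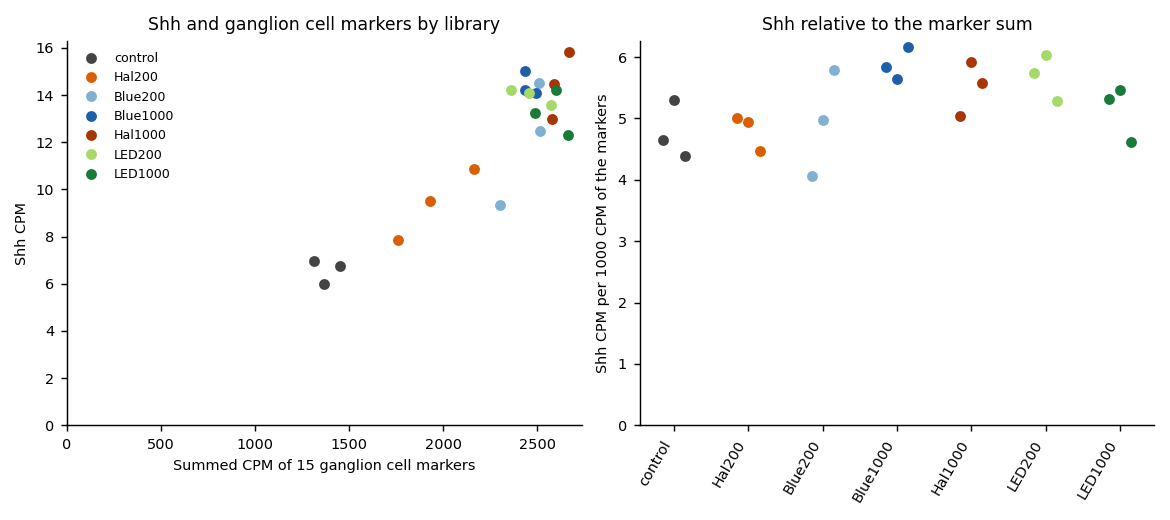
Left, Shh (CPM) against the summed CPM of 15 ganglion cell markers, 1 point per library; right, Shh per 1000 CPM of that sum by group. Shh and the marker sum were lowest in control and highest in the 5 light groups other than Hal200, and relative to the markers the control range of 4.38 to 5.30 lay within the range of 4.06 to 6.16 of those groups.

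Ptch1, the receptor that holds Smoothened inactive, varied little. It stood at 163, 163 and 155 CPM in control and at 200, 202 and 204 CPM in Blue1000. Blue200 spread over 144, 192 and 231 CPM, and LED1000 over 204, 177 and 146 CPM, so that both groups reached below the controls. Hal1000 had 207, 178 and 181 CPM, LED200 178, 205 and 183 CPM, and Hal200 194, 193 and 158 CPM.

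Ptch1 rose in Blue1000 (log2 0.33 ± 0.14 SE, edgeR adjusted p 0.045). It did not pass the test in the mean of the 5 light groups, where its difference was 0.23 ± 0.11 (log2, SE, edgeR adjusted p 0.066). Scaled to bipolar cell genes instead of TMM, which lowered the median of all genes by 0.40 on the log2 scale, Ptch1 was lower than control in that mean (log2 -0.18, edgeR adjusted p 0.038). The Blue1000 call was lost when any single library of Blue1000 or control was left out, with edgeR adjusted p from 0.080 to 0.13. Ordered by mean, Ptch1 ran from control through LED1000, Hal200, Hal1000, LED200 and Blue200 to Blue1000, and each group overlapped the one before it.

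Smo, the signal transducer, stood at 21.6 and 23.7 CPM in control replicates 1 and 2 and at 42.7 CPM in control replicate 3. The 15 libraries of the 5 groups ran from 33.9 to 47.6 CPM with a median of 40.4 CPM, and Hal200 had 32.6, 37.8 and 27.5 CPM. All 15 lay above 2 of the 3 controls and overlapped the third.

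Smo rose in the mean of the 5 light groups (log2 0.48 ± 0.16 SE, edgeR adjusted p 0.014), in LED1000 (0.54 ± 0.20, adjusted p 0.030) and in LED200 (0.49 ± 0.20, adjusted p 0.049). Both single-group calls were lost without control replicate 1 (edgeR adjusted p 0.15 in LED1000 and 0.24 in LED200), without control replicate 2 (0.13 and 0.20) and without replicate 1 or 2 of the light group, with adjusted p from 0.085 to 0.17. They were also lost without the 3 intermediate libraries. In Blue200, Blue1000 and Hal1000 the differences were of similar size, 0.48, 0.46 and 0.44 (log2), with edgeR adjusted p of 0.050, 0.059 and 0.070. Without control replicate 3 the mean difference was 0.84 (log2, edgeR adjusted p 3.9e-05), and without control replicate 1 or 2 it was 0.31 (adjusted p 0.14) or 0.35 (adjusted p 0.11). Control replicate 3 also held 5168 CPM of lens markers and 311 CPM of fibroblast markers, against at most 85.8 and 112 CPM in the other controls, and the part of these in its Smo level was not tested.

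Hhip, a decoy that binds the ligand at the cell surface, was near the limit of detection. It had 0 counts in 4 libraries, and 11 or fewer in all others except control replicate 3 with 13 and Blue1000 replicates 2 and 3 with 24 and 31. Its difference in the mean of the 5 groups was -0.27 ± 0.93 (log2, SE), with a 95% interval from -2.22 to 1.67 and edgeR adjusted p 0.82. Neither a rise nor a fall was detectable at this depth.

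Gli2, the main activator downstream of Smoothened, stood at 10.6, 14.3 and 17.3 CPM in control. Blue1000 with 25.4, 21.7 and 22.0 CPM and Hal1000 with 22.0, 20.4 and 21.6 CPM lay wholly above the controls. The share of all genes separated in this way in either group is not given. Blue200 had 15.5, 19.4 and 24.2 CPM, LED200 19.9, 20.3 and 15.9 CPM, and LED1000 24.4, 21.6 and 12.5 CPM, and these overlapped the controls. Hal200, with 14.5, 16.5 and 13.4 CPM, lay within the control range.

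Gli2 rose in the mean of the 5 groups (log2 0.54 ± 0.17 SE, edgeR adjusted p 0.00998), in Blue1000 (0.71 ± 0.21, adjusted p 0.0078) and in Hal1000 (0.60 ± 0.21, adjusted p 0.021). Without control replicate 1, the lowest library for Gli2, the mean difference was 0.37 (log2, edgeR adjusted p 0.11), and the differences in Blue1000 and Hal1000 had adjusted p of 0.054 and 0.12. The Hal1000 call was also lost without Hal1000 replicate 1 (adjusted p 0.054) and without the 3 intermediate libraries. Scaled to bipolar cell genes, neither Gli2 (0.11, adjusted p 0.53) nor Smo (0.06, adjusted p 0.79) passed the test in the mean of the 5 groups.

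Gli3, the main repressor of the family, showed no change past the threshold. Control held 8.42, 10.3 and 10.9 CPM, and the extremes were LED1000 replicate 3 at 5.04 CPM and Blue1000 replicate 3 at 14.8 CPM. The mean of the 5 groups differed from control by 0.07 ± 0.21 (log2, SE), with a 95% interval from -0.37 to 0.51 and edgeR adjusted p 0.79. LED1000 replicate 3 was also the lowest of its group for Shh, Ptch1, Smo, Gli1 and Gli2. Its summed FPKM was the highest of all libraries (383688), followed by Blue200 replicate 1 (379561), against at most 352670 in the other 19. Blue200 replicate 1 was the lowest of its group for Shh, Ptch1, Gli1, Gli2 and Gli3 and the highest for Smo and Hhip. The part of this trait in these levels was not tested.

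Markers of Müller glia, cells known to respond to the ligand, were also higher in the 5 light groups than in control, though not library by library with Smo and Gli2. LED1000 replicate 3, low for Gli2, had the highest sum of all libraries, and control replicate 3, high for Smo, lay below all 15 light libraries. The sum lay at 8657 to 10736 CPM in control, 9624 to 12048 CPM in Hal200 and 12285 to 15376 CPM in the other 15 light libraries; Rlbp1, a retinoid-binding protein of these glia, had a mean of 362 CPM in control and 572 to 747 CPM in the 5 groups. Per 1000 CPM of that sum, Smo stood at 3.05 ± 0.80 in control (SD, n = 3) and 2.88 ± 0.31 in the 15 libraries (SD, n = 15), and Gli2 at 1.48 ± 0.22 and 1.44 ± 0.25. Ptch1 stood at 17.3 ± 2.5 in control and 13.3 ± 1.9 in the 15 libraries. The part of these markers in the differences was not tested.

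Gli1, the activator that is itself a target, was set apart by Hal200. Its counts were 208, 204 and 79 in Hal200, which correspond to 6.46, 6.11 and 2.61 CPM. The controls had 7, 0 and 24 counts, Blue200 15, 31 and 17, Blue1000 17, 31 and 10, and Hal1000 41, 15 and 19. LED200 had 12, 34 and 20 counts and LED1000 43, 46 and 37. All 3 Hal200 libraries lay above all 18 others, and in the order of means each other group overlapped the one before it. Gli1 entered the selection for its rise in Hal200, so this separation is a description only. The share of all genes with Hal200 above all 18 others is not given.

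The fitted difference between Hal200 and control was 3.79 ± 0.76 (log2, SE), or 13.9-fold, the 27th largest rise of 16006 genes tested in a comparison in which 7.25% of genes were called higher. It rested on few control reads: without control replicate 3 it was 5.23, and without control replicate 2, which had 0 counts, it was 3.23. In the next group in order, LED1000, the libraries did not overlap the controls for Gli1. The share of all genes separated in this way is not given. Between LED1000 and control Gli1 differed by 1.75 ± 0.74 (log2, SE, edgeR adjusted p 0.052). Without control replicate 3 that difference was 3.18 (log2), with edgeR adjusted p 0.0041. In the mean of the 5 groups the difference was 1.01 ± 0.62 (edgeR adjusted p 0.16), and without control replicate 3 it was 2.45 (adjusted p 0.011). Gli1 passed the filter on low counts without Hal200 as well, with 10 or more counts in 16 of the other 18 libraries.

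Of the other members, Shh alone had Hal200 libraries wholly above the controls, as given with its values. The share of all genes separated in this way in Hal200 is not given, so the separation is a description only. Against control, Ptch1 differed by 0.18 ± 0.14, Smo by 0.15 ± 0.20, Gli2 by 0.08 ± 0.21, Gli3 by 0.27 ± 0.27 and Hhip by -0.45 ± 1.26 (log2, SE). Over the 21 libraries, which share the light groups, the correlation of log2 CPM between Gli1 and the other members ran from -0.02 with Gli2 to 0.22 with Smo. Over the 18 libraries without Hal200 it was 0.62 with Smo, 0.44 with Shh, 0.37 with Gli2, 0.24 with Ptch1, 0.10 with Hhip and -0.13 with Gli3. Over all 21, Gli2 correlated with Ptch1 at 0.72, with Smo at 0.73 and with Shh at 0.71; these values are a description.

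**Figure D3:**
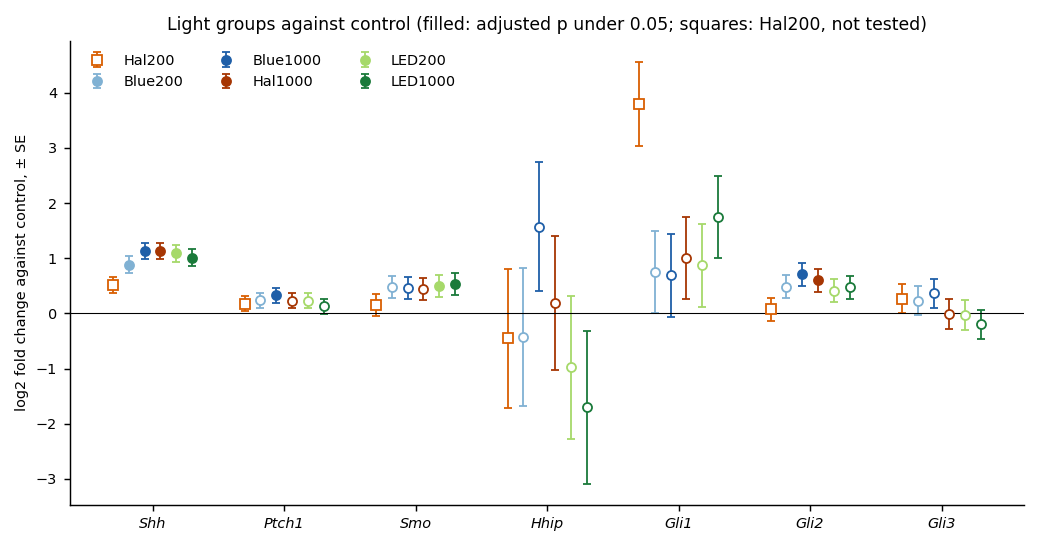
Log2 fold change against control (± SE, 3 libraries per group) of the 7 Hedgehog genes in the 6 light groups. Filled points passed an adjusted p of 0.05, open points did not, and open squares show Hal200, which was not tested; Shh is filled in all 5 tested groups and Gli1 in Hal200 lies highest at 3.79.

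Reads of a neighbour could enter Gli1 where genes overlap. In RefSeq build GRCr8 Arhgap9 overlaps Gli1 by 100 bases. Arhgap9 stood at 0.78, 0.15 and 0.17 CPM in control, at 1.90, 1.62 and 0.46 CPM in Hal200 and at 0.61 to 2.32 CPM in the other 15 light libraries. In those 15 libraries Gli1 stood at 0.307 to 1.32 CPM. The part of Arhgap9 reads in the Gli1 level was not tested. Whether the counting used strand is not given in the sources used here.

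The genes most alike to Gli1 were ranked by the correlation of log2 CPM over the 21 libraries among the 13404 genes that averaged 1 CPM or more. The most alike were Gadd45g, a stress-response gene (r = 0.86), Il4r, a cytokine receptor (0.84), Plekha4 (0.82) and Socs3, an inhibitor of cytokine signalling (0.81). Next came Dipk1c (0.76), Bcl3, a regulator of NF-κB (0.74), Gnb3, a G protein subunit of cones and bipolar cells (0.73), and Siae (0.73). Rank (Spearman) correlations of these genes with Gli1 were lower, from 0.54 for Bcl3 to 0.78 for Gadd45g. Il4r stood at 186, 77.6 and 31.2 CPM in Hal200 and at 22.1 to 28.4 CPM in the other 15 light libraries. Socs3 stood at 32.5, 35.2 and 19.3 CPM in Hal200 and at 8.18 to 22.1 CPM in those 15.

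The likeness rested on Hal200. Over the 18 libraries without it, the 8 most alike genes were Afmid, Glycam1, Pald1, Gpx7, Rab21, Pmfbp1, Atp6ap1l and Inmt, with r from 0.80 to 0.84. Their rank (Spearman) correlations ran from 0.49 for Gpx7 to 0.85 for Pmfbp1. Between the lists 0 genes were shared. Microglia and macrophage markers lay at 87.3 to 234 CPM in Hal200 and 56.0 to 73.8 CPM in control, and at 108 to 259 CPM in the other light libraries. Their part in the Gli1 level was not tested.

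**Figure D4:**
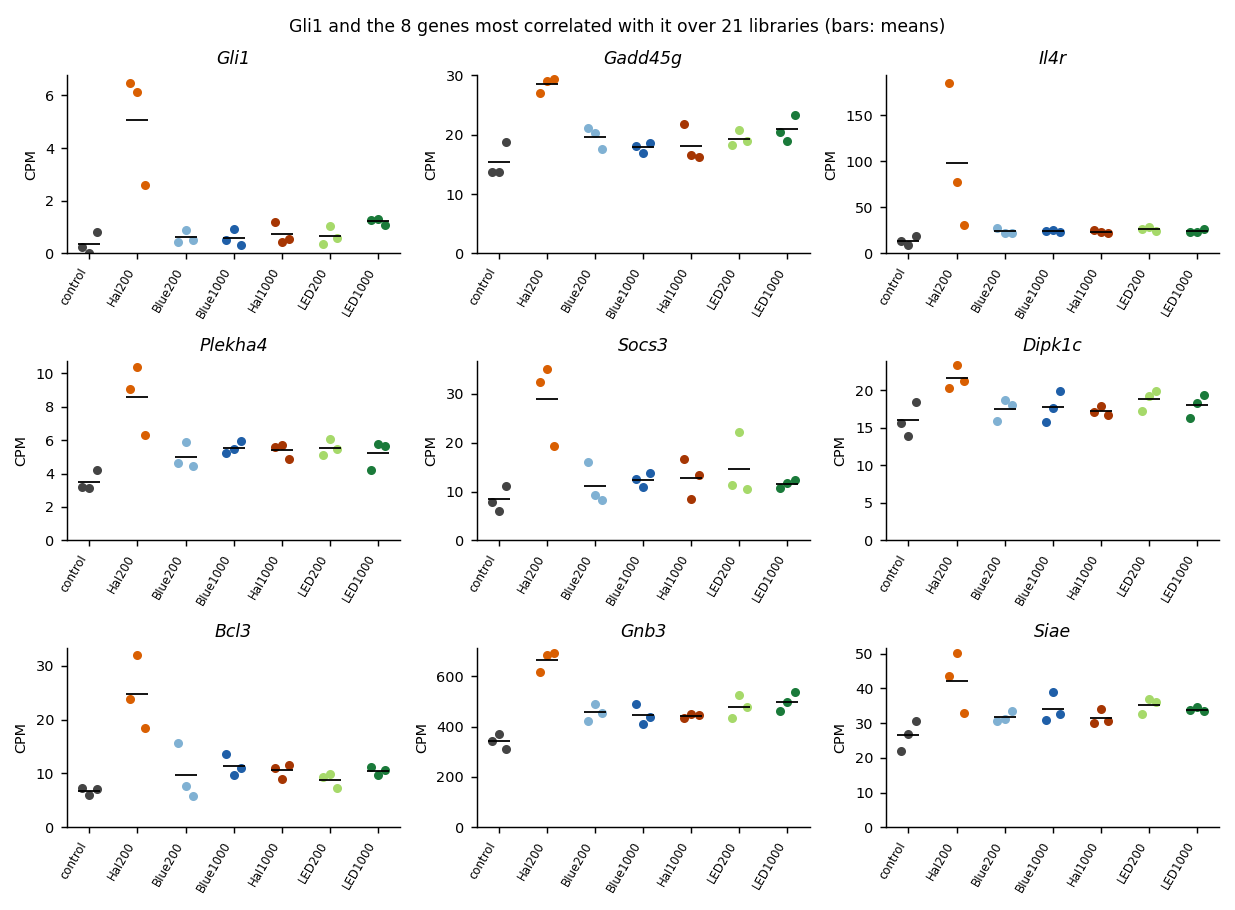
Level in CPM of Gli1 and the 8 genes most correlated with it over the 21 libraries, 1 point per library and a bar at each group mean. All 9 genes have their highest group mean in Hal200, where Il4r spreads from 31.2 to 186 CPM.

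Counted by group, the members called higher than control were 1 in Blue200 (Shh), 3 in Blue1000 (Shh, Gli2, Ptch1), 2 in Hal1000 (Shh, Gli2), 2 in LED200 (Shh, Smo) and 2 in LED1000 (Shh, Smo), and none was called lower. Of all genes tested, 27.7%, 27.4%, 27.3%, 26.5% and 27.7% were called higher in these comparisons, and 25.8%, 26.9%, 26.8%, 25.7% and 26.8% lower. In the mean of the 5 groups 3 of 7 members were called higher, beside 31.4% of all genes, and none lower, beside 30.3%. That count was 5 without the 3 most lens-rich libraries, 4 without the 5 most lens-rich and 1 without control replicate 1. Scaled to bipolar cell genes, Shh stayed called higher in that mean, whereas Gli2 and Smo did not pass the test (edgeR adjusted p 0.53 and 0.79). Ptch1 was then called lower (log2 -0.18, edgeR adjusted p 0.038). With so few members these counts were near the background. The median difference of the members in that mean was 0.48 (log2), against 0.05 for all genes tested, and all of these comparisons share the same 3 control libraries. Mean rod marker sums were 43889 CPM in control and 550 CPM in the 5 groups. Sums of ganglion cell (1377 and 2510 CPM), Müller glia (9406 and 14278 CPM) and bipolar cell genes (3281 and 4370 CPM) were higher. Of the marker lists, only the rod and lens lists had a lower mean. The part of this shift in the median of the members was not tested.

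Blue and LED light, and the levels 200 and 1000, were then compared directly. edgeR called 0 of 7 members in Blue1000 against Blue200 (0.0125% of all genes called), LED1000 against LED200 (0.0687%), Blue200 against LED200 (0%), Blue1000 against LED1000 (0.262%) and Hal1000 against the mean of Blue1000 and LED1000 (0.0125%). At an unadjusted p under 0.05 the count was 0 in each except Blue1000 against LED1000, where it was 2, Gli3 and Hhip. limma voom with quality weights called 4 members in that comparison. Its share of all genes is not given, so the 4 cannot be set against the 0.262% of edgeR.

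For Shh the difference between level 1000 and level 200 was 0.25 in blue light, with a 95% interval from -0.05 to 0.56 (log2), and -0.08 in LED light, with an interval from -0.38 to 0.23. For Ptch1 the intervals ran from -0.19 to 0.38 in blue and from -0.39 to 0.18 in LED. The level effect was not shown to differ between blue and LED light for any member, with edgeR adjusted p of the difference from 0.40 for Shh to 0.92 for Smo, while 0.0625% of all genes were called in that test.

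The other genes of the pathway were taken from a list of 67, of which 63 were tested. In the mean of the 5 light groups 23 were called higher, 16 lower and 24 neither, with a median difference of 0.27 (log2) against 0.05 for all genes tested, of which 31.4% were called higher and 30.3% lower. The same shares of all genes apply beside the counts by role below, several of which rest on few genes. Scaled to bipolar cell genes, 10 of the list were called higher and 25 lower, so the split of the list depended on the scaling. Of the genes named below with a call, none turned direction under that scaling, and Glis2 (0.24, adjusted p 0.076) and Mycn (0.30, adjusted p 0.096) no longer passed the test.

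Among the ligands, Dhh, which encodes Desert hedgehog, fell from 16.4 ± 2.5 CPM in control (SD, n = 3) to 1.46 ± 0.40 CPM in the 15 light libraries (SD, n = 15), a difference of -3.49 ± 0.20 (log2, SE, edgeR adjusted p 1.9e-11), whereas Shh rose. In Hal200 it stood at 7.87 ± 2.84 CPM (SD, n = 3). Ihh, Indian hedgehog, had at most 10 counts in any library and was not tested. Dhh lies within the span of Tuba1c, a tubulin gene, over 5496 bases in GRCr8, and Tuba1c had means of 14.5 CPM in control and 20.2 to 23.1 CPM in the 5 groups. Nearby genes differed in both directions: Tuba1b had a mean of 503 CPM in control and 604 to 638 CPM in the 5 groups, Kmt2d of 670 CPM and 319 to 418 CPM, Rhebl1 of 20.1 CPM in control and 4.54 to 5.73 CPM in the 5 groups, and Lmbr1l of 224 CPM and 52.6 to 57.2 CPM. The rod marker sum was lower in the same libraries, and its part in the fall of Dhh was not tested.

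Of 7 genes of ligand processing and release, 4 were called higher and 1 lower. Scube3, of a family that helps release the ligand, rose by 2.34 ± 0.40 (log2, SE, edgeR adjusted p 5.1e-05), and Disp2 and Disp3, relatives of the releasing protein Dispatched, rose by 0.84 and 0.68. Disp1, which encodes Dispatched itself, fell by 0.55.

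Of 6 receptors and coreceptors, 2 were called higher and none lower, and scaled to bipolar cell genes 1 was called higher and 1, Cdon, lower. Gas1, a membrane coreceptor of the ligand, rose by 1.11 ± 0.15 (log2, SE, edgeR adjusted p 2.9e-06), from 36.7 ± 8.2 CPM in control to 79.3 ± 10.3 CPM in the 15 libraries. The coreceptors Cdon (-0.06 ± 0.18, adjusted p 0.80) and Boc (0.31 ± 0.35, adjusted p 0.47) did not pass the test; scaled to bipolar cell genes, Cdon differed by -0.48 (adjusted p 0.0046).

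Of 17 genes of the cilium and of Smoothened regulation, 6 were called higher and 5 lower. The 4 with the smallest adjusted p were Ift172, a carrier of transport along cilia, which fell by 1.60 (log2), Tulp3, which brings receptors into cilia and fell by 0.58, Grk3, a receptor kinase that rose by 0.67, and Efcab7, which fell by 1.19. Rod outer segments are themselves built on a modified cilium, and the part of the lower rod marker sum in these values was not tested.

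Of 20 regulators of Gli proteins, 7 were called higher and 8 lower. Sufu, which holds Gli proteins in the cytoplasm, fell by 0.79 ± 0.11 (log2, SE, edgeR adjusted p 4.1e-06), from 24.8 ± 2.2 to 14.5 ± 2.4 CPM. The kinases Stk36 and Ulk3 fell by 1.40 and 0.88, while Prkacb, a catalytic subunit of protein kinase A, and Glis2, a Gli-similar zinc finger gene, rose by 0.66 and 0.65.

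Of 15 further textbook targets, 12 were tested, with 4 called higher and 1 lower. Ccnd1, cyclin D1, rose by 1.37 ± 0.32 (log2, SE, edgeR adjusted p 0.0016), Mycn by 0.71 and Tbx2 by 0.65. The Ccnd1 controls were split, at 7.20, 7.35 and 21.7 CPM, and the 15 light libraries ran from 22.3 to 51.1 CPM. Ccnd2, cyclin D2, fell by 2.54 ± 0.17 (adjusted p 4.6e-10), from 36.04 ± 3.78 CPM in control to 6.39 ± 2.21 CPM in the 15 libraries. In Hal200 Ccnd2 stood at 61.2 ± 11.7 CPM (SD, n = 3), above the controls. The only target called lower was Ccnd2, and of all genes tested 31.4% were called higher and 30.3% lower in this comparison.

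**Figure D5:**
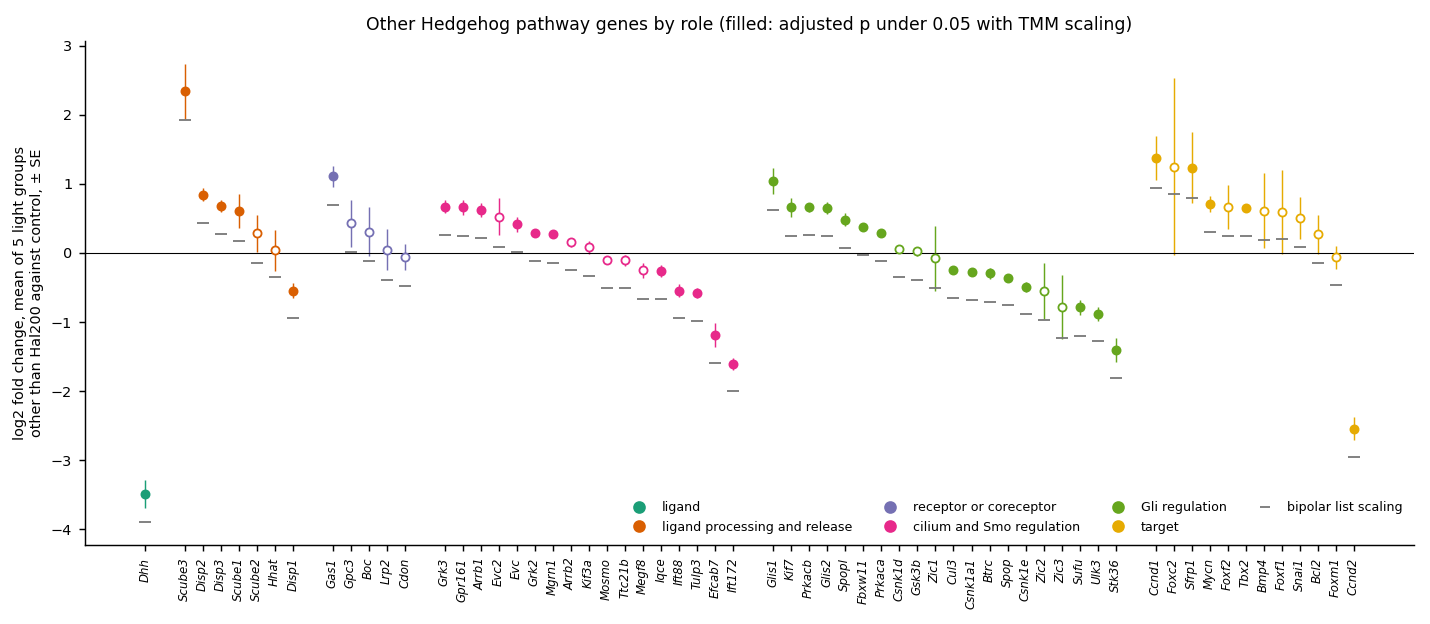
Log2 fold change (± SE) of 62 of the 63 tested other Hedgehog pathway genes between the mean of the 5 light groups other than Hal200 and control, by role; filled points passed an adjusted p of 0.05 with TMM scaling, and grey dashes give the value when scaled to bipolar cell genes. Dhh lies lowest at -3.49 and Scube3 highest at 2.34, and the dashes lie below the points.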

How the data were processed

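Per the labels' protocols, total retinal RNA was made into 21 libraries with the VAHTS Universal V6 kit. The authors deposited whole-number counts per gene and a table of FPKM values. Each FPKM value equalled the count over the library total and 1 length per gene for 19099 of 19099 genes (tolerance 0.001 bases), so the deposited FPKM were no independent measurement and served to compare levels between genes. The submitters' processing notes name R 3.2.0. Not given in the sources used here were the aligner, the counter, its strand setting and the build.

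Counts were tested by edgeR 4.0.16 in R 4.3.3 (quasi-likelihood F-test, TMM, robust, two-sided, 1 mean per group over all 21 libraries). The filter required a count of 10 in about 3 libraries and a total of 15 and kept 16006 genes. P-values were adjusted by Benjamini-Hochberg over all genes tested, with a threshold of 0.05. Scripts were tested on simulated data. Alternatives used DESeq2 1.42.0, limma 3.58.1 (pseudocounts 1 and 0.1 on FPKM), other scalings and filters, and left-out libraries. Intervals of differences use the SE of the edgeR fit, which includes the spread between libraries, a spread that may be technical.

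The members, the lists and the alternatives were chosen with earlier results of these data known; leaving out the 2 libraries with the highest summed FPKM, or the 5 with the most lens RNA, was added after the data were seen. Named beside the members were, in each role, up to 4 pathway genes called in the mean of the 5 light groups with a mean of at least 1 CPM, 8 genes fixed by name, and the 8 genes most alike to Gli1; 1 gene that the rule picked is not reported here. Some neighbours were named for lying beside or over Gli1 or Dhh. Promoters are from RefSeq (GRCr8).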

Additional observations from a re-analysis of the deposited data

How the results depend on the processing

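The call of Shh in each of the 5 light groups and in their mean held under all alternatives run, with values of 0.64 to 1.26 (log2) in the mean. The counts of members called moved more. With all libraries the counts were 1 in Blue200, 3 in Blue1000, 2 in Hal1000, 2 in LED200, 2 in LED1000 and 3 in the mean. Leaving out 1 library at a time they ranged from 1 to 4 in each of these 6 comparisons and stayed at 0 in the 5 comparisons between levels and sources. The fall to 1 in the mean came without control replicate 1, and the 4 without control replicate 3.

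Without the 3 lens-rich libraries the counts were 5 in Blue200, 5 in Blue1000, 4 in Hal1000, 4 in LED1000 and 5 in the mean. Without the 5 libraries with the most lens RNA, which leaves 1 Blue1000 library assumed to vary like the other groups, they were 5 in Blue200, 4 in Blue1000, 4 in Hal1000 and 4 in LED1000, and Ptch1 in Blue1000 had an adjusted p of 0.17. Without the 3 in-between libraries they were 1 in Hal1000, 1 in LED200 and 1 in LED1000. Without the 2 libraries with the highest summed FPKM they were 3 in Blue200 and 4 in LED1000. limma-trend on log2(FPKM + 1) gave 4 in Blue200, 5 in Blue1000, 4 in Hal1000, 4 in LED200 and 4 in LED1000. On log2(FPKM + 0.1) it gave 4 in Blue200, 4 in Hal1000, 4 in LED200, 5 in LED1000 and 5 in the mean. These 2 fits on FPKM also left out the TMM scaling, whose factors were 0.868 to 0.894 in control and 1.02 to 1.08 in the 5 light groups. limma voom gave 5 in Blue200, 5 in Blue1000, 4 in Hal1000, 4 in LED1000, 5 in the mean and 4 in Blue1000 against LED1000. DESeq2 gave 2 in Blue200; its size factors in edgeR, and no filter, each gave 1 in LED200. With only the compared groups in the fit LED1000 had 1. Shares over all genes are not given for these alternatives, so the counts show only how the calls moved.

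With the replicate number as a block the count in LED200 was 1, and the other counts moved by at most 1.5 times. No excess likeness of same-numbered libraries was seen: their deviations correlated over 0.1 in 9 of 63 pairs, with a median of 0.0053, against 19 of 126 differently numbered pairs. With 3 libraries per group this cannot exclude a pairing.

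Scaling to bipolar cell genes left 1 member called in Blue1000, Hal1000 and LED1000. In LED200 and in the mean the calls held Shh higher and Ptch1 lower (edgeR adjusted p of Ptch1 0.0090 and 0.038). Smo no longer passed the test there (edgeR adjusted p 0.82 and 0.79). It turned Ptch1 to -0.16 in Blue200, -0.16 in Blue1000, -0.18 in Hal1000, -0.31 in LED200 (edgeR adjusted p 0.0090), -0.0941 in LED1000, -0.18 in the mean and -0.0620 in Blue1000 against LED1000. It turned Smo to -0.0422 in Blue1000 and -0.0708 in LED200, Gli2 to -0.14 in LED200 and Gli3 to -0.13 in Blue1000. Gli3 in LED200, near 0, turned to 0.11 and 0.16 with limma-trend at the larger and the smaller pseudocount, and ran from -0.27 to 0.0823 without single libraries. The causes of these differences were not tested.

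The difference of Gli1 between Hal200 and control was 0.96 with limma-trend on log2(FPKM + 1), where the pseudocount exceeds the control level, 5.57 with limma voom, and 3.23 to 5.23 without single libraries. Depth limits Gli1 and Hhip, whose control libraries held 0 to 24 counts, and the 3 control libraries enter every comparison with control.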
